A study of Mus musculus with 48 samples.

Results

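Glucose uptake and glycolysis were read in RAW264.7 cells, a mouse macrophage line, from 10 genes chosen by name: Slc2a1, Hk1, Hk2, Pfkl, Pfkp, Aldoa, Pgk1, Pkm, Ldha and Pdk1. All 10 were found among the 49568 rows of the deposited count table, and all 10 passed the filter on low counts in each of the 16 comparisons made. Cells received PBS, or one of 3 synthetic peptides called LE, SE and PE, or IFN-γ, or 1 peptide together with IFN-γ, which gives 8 groups. Each peptide was 15 residues long and spanned residues 65 to 79 of an HLA-DR β chain, with LE named after allele 0301, SE after 0401 and PE after 0402. Peptides were used at 100 µg/ml and IFN-γ at 5 ng/ml, all for 72 h with 1 change of medium. The line carries no transgene or deletion named in the labels, and all groups are the same line, so nothing here stands for primary macrophages.

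The libraries used are the 24 whose columns carry a letter, 3 in each group, with 16498562 to 26929356 counted reads. The study calls its RAW264.7 replicates biological and drawn from more than 1 experiment. The labels do not tie a library to a culture or an experiment. The p-values therefore measure the spread between the 3 libraries within a group, pooled over all groups of each fit. Of the 8 macrophage markers, 7 stood at 10 CPM (read counts scaled to library size) or more in every library, while Mertk stayed between 0 and 0.41 CPM and was at 0 in 7 libraries. All 5 T cell, all 5 B cell and all 5 epithelial markers, and 4 of 5 fibroblast markers, were under 1 CPM in every library (Pdgfra reached 1.86 CPM). The other 24 libraries, named with HLA and a number, were kept out of the main comparisons. In 12 of those 24 the level of 20 IFN-γ target genes went against the label, against 0 of 24 among the letter-labelled libraries. Their columns were tied to groups by the HLA number in the sample descriptions. In the count table, however, these 24 columns stand in 8 runs of 3, each after the letter columns of 1 group, and 0 of the 24 stand after the group of their own label. Read beside the group of the letter columns before them, the targets went against 0 of the 24. No source used here settles which of these readings is right, so the group of every HLA-labelled library is in doubt. Their values are given as labelled and as alternatives only, and they are no test of whether a result repeats.

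Glucose enters most cells through facilitative transporters, and Slc2a1 encodes GLUT1, the transporter that activated macrophages rely on. Hexokinases (Hk1, Hk2) then phosphorylate the sugar, phosphofructokinase (Pfkl, Pfkp) commits it to glycolysis, aldolase (Aldoa) splits it, phosphoglycerate kinase (Pgk1) and pyruvate kinase (Pkm) make ATP, and lactate dehydrogenase (Ldha) turns pyruvate into lactate. Pdk1 encodes a kinase that holds back pyruvate dehydrogenase, so that less pyruvate enters the mitochondria. Many of these genes are textbook targets of the hypoxia-inducible factors (HIF), which bind a short element with a core such as ACGTG. Macrophages driven by IFN-γ are known for high glycolytic flux.

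In the RefSeq windows of 250 bases before each listed start (build GRCm38.p6), ACGTG on either strand was found for 6 of the 10 genes in at least 1 window, and for 4 of the 10 (Slc2a1, Hk2, Pgk1 and Ldha) in the window of the first listed start. Of the 16 windows of these genes 7 held it, and 16.6% of all 32851 windows did. Among the 7 are 2 overlapping windows of Aldoa, whose single matches are the same site. The 3 windows below are those with more than 1 match, and none of them overlaps an annotated GENCODE exon of its gene. They run 5′ to 3′ in the direction of the gene and end at the base before the start, with ACGTG and its reverse complement CACGT in capitals. The window of Ldha is chr7:46845554-46845803 on the plus strand, that of Pgk1 chrX:106186850-106187099 on the plus strand, and that of Hk2 chr6:82774455-82774704 on the minus strand.
Ldha: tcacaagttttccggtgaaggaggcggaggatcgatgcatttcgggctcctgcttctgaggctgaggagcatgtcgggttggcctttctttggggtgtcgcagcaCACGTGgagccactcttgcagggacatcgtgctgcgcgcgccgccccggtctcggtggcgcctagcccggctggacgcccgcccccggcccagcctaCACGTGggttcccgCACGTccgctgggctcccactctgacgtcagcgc
Pgk1: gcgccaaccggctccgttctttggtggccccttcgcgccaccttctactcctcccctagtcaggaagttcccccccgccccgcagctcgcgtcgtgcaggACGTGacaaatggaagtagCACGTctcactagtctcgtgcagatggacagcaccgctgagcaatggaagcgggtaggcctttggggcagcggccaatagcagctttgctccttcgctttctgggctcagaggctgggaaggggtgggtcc
Hk2: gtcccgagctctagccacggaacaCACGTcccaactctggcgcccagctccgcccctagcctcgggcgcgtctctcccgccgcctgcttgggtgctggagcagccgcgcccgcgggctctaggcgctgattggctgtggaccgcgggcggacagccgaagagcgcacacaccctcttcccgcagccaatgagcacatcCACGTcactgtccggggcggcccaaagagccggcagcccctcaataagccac
The Ldha window held 3 separate stretches, which begin 145, 48 and 34 bases before the start. The first and second are the palindrome CACGTG, which contains ACGTG on both strands and was present in 6.02% of all windows. In Pgk1 the matches began 150 and 131 bases before the start, in Hk2 226 and 52, and the single match of Slc2a1 began 36 bases before it. Only ACGTG was searched as the core of the HIF element, so other forms of that core were not counted. A match is a run of letters and was not tested for binding.

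Levels between genes were compared per kilobase of exon. Aldoa (group means of 882 to 1466 CPM per kb) and Pkm (844 to 1238 CPM per kb) were the most abundant. The ranges overlapped over all groups, with Aldoa above Pkm in 8 of 8 group means and in 23 of 24 libraries. Ldha (298 to 814 CPM per kb) and Pgk1 (194 to 347 CPM per kb) came next, followed by Slc2a1 at 62.9 to 114 CPM per kb. The rate-setting enzymes lay lower, with Pfkl at 18.6 to 40.3, Hk1 at 21.1 to 36.4, Pfkp at 21.9 to 29.6 and Hk2 at 16.6 to 27.9 CPM per kb. Pfkp was above Hk2 in 8 of 8 group means and in 23 of 24 libraries, while Pfkp was above Hk1 in 4 of 8, Pfkp above Pfkl in 4 of 8, Hk1 above Pfkl in 2 of 8 and Pfkl above Hk2 in 7 of 8, so the rest of their order changed with the group. Pdk1 was the least abundant, at 4.40 to 9.16 CPM per kb. The 5 near-identical copies (Aldoart1, Aldoart2, Pgk2, Pgk1-rs7 and Ldha-ps2) held at most 2.17 CPM in any library.

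**Figure D1:**
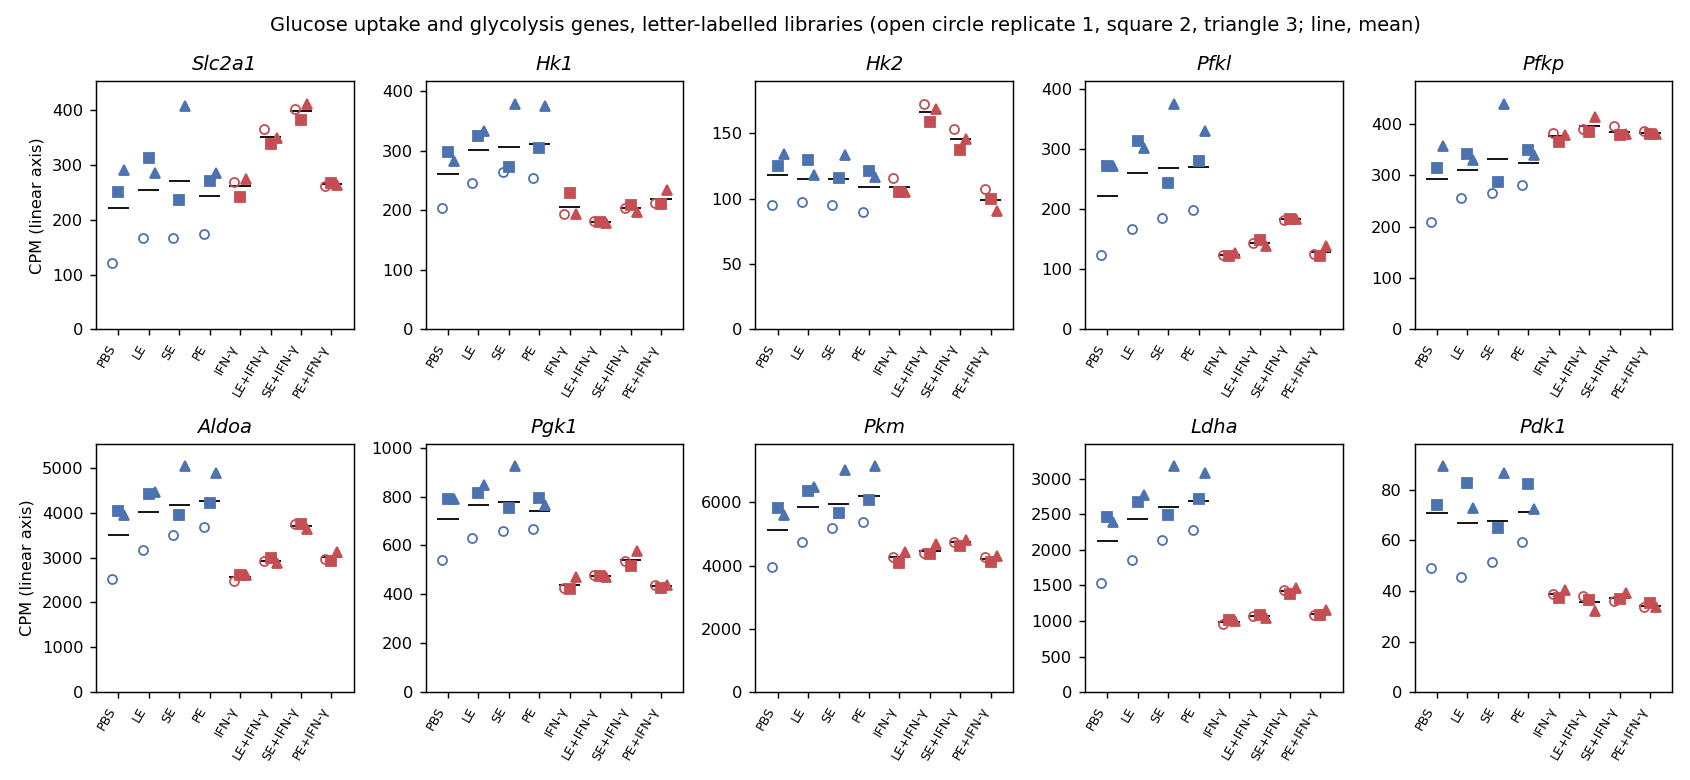
CPM (scaled by TMM, linear axes from 0) of the 10 genes in the 24 letter-labelled libraries; blue groups had no IFN-γ, red groups had it, and the line is the mean of 3. Replicate 1 (open circle) is the lowest library of every group without IFN-γ for every gene, and groups with IFN-γ are tight, for example Ldha at 956 to 1008 CPM with IFN-γ alone.

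In the levels of these 10 genes, the 3 libraries of a group were far more alike with IFN-γ than without it. In the 4 groups without IFN-γ replicate 1 was the lowest of the 3 libraries in 40 of 40 gene and group pairs, at 0.447 to 0.852 of the mean of replicates 2 and 3 (median 0.732). In the 4 groups with IFN-γ it was the lowest in 7 of 40, with ratios from 0.920 to 1.13. Summed over the 10 genes, PBS gave 9358, 14432 and 14165 CPM in replicates 1, 2 and 3, and IFN-γ alone gave 9220 to 9639 CPM. The coefficient of variation had a median of 19.7% (9.16 to 45.7%) without IFN-γ and 3.44% (0.678 to 9.76%) with it. Around their group means the 10 genes moved together in the 12 libraries without IFN-γ, with Pearson's r of 0.844 to 0.997 over the 45 pairs of genes (median 0.955). In the 12 libraries with IFN-γ the same correlation had a median of 0.087 and ran from -0.72 to 0.76. These correlations describe libraries that share a run of counts and a scaling, and carry no test.

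**Figure D2:**
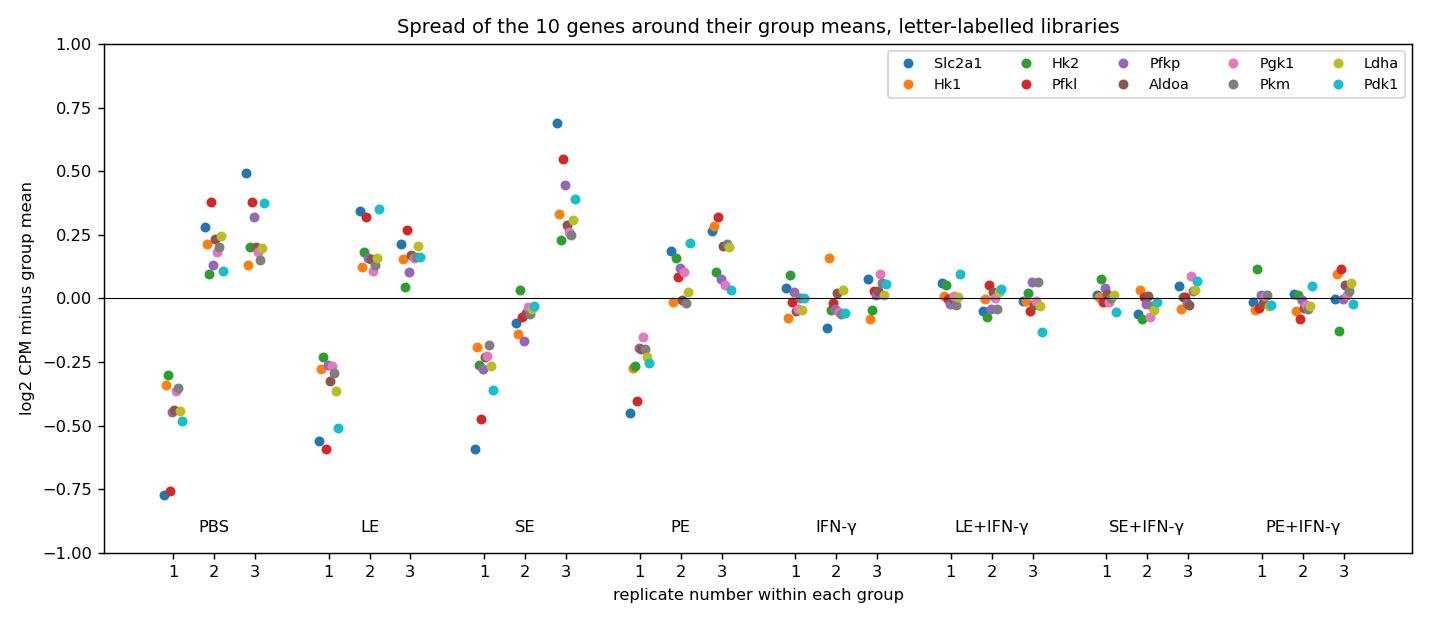
Log2 CPM minus the group mean for each of the 10 genes (colours) in each replicate (horizontal axis) of the 8 groups. Without IFN-γ all 10 genes lie below 0 in replicate 1, and with IFN-γ the points lie close to 0.

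Of the 10 genes Ldha fell most with IFN-γ alone. Against PBS, 6 of the 10 genes fell and 0 rose at an adjusted p under 0.05 (edgeR's quasi-likelihood test, Benjamini-Hochberg over all 12242 genes tested), beside 19.5% of all genes lower and 39.7% called in either direction. The 6 were Ldha, Pdk1, Pfkl, Pgk1, Aldoa and Hk1, and 4 of them (Ldha, Pdk1, Pfkl and Pgk1) fell by more than 1.5-fold, which 8.28% of all genes did. The median log2 fold change was -0.41 over the 10 genes and -0.01 over all genes. In bulk RNA, fewer cells of a type and less RNA per cell cannot be told apart.

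Ldha, the enzyme that makes lactate, stood at 1533, 2467 and 2392 CPM in the PBS libraries and at 956, 1008 and 996 CPM with IFN-γ. The groups did not overlap, and even the low PBS library was above every IFN-γ library. The log2 fold change was -1.12 ± 0.14 (SE; adjusted p = 9.5e-05), a 2.18-fold fall. Pdk1 went from 49.2, 74.1 and 89.3 CPM to 38.7, 37.2 and 40.3 CPM, again without overlap (log2 fold change -0.88 ± 0.16, adjusted p = 0.0012). Pfkl, the liver-type phosphofructokinase, was 124, 271 and 272 CPM in PBS and 123, 123 and 127 CPM with IFN-γ. Here replicate 1 of PBS lay within the range of the IFN-γ libraries, and the fall of 0.85 ± 0.22 on the log2 scale (adjusted p = 0.0094) came from replicates 2 and 3. Pgk1 dropped by 0.70 ± 0.13 (adjusted p = 9.8e-04), from 541 to 790 CPM in PBS to 423 to 469 CPM. Aldoa decreased by 0.46 ± 0.14 (adjusted p = 0.024), with 2527, 4030 and 3943 CPM in PBS and 2478, 2607 and 2617 CPM with IFN-γ, and Hk1 decreased by 0.36 ± 0.12 (adjusted p = 0.037).

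Slc2a1, Hk2, Pfkp and Pkm did not pass the test. Slc2a1 read 121, 251 and 290 CPM in PBS and 268, 240 and 275 CPM with IFN-γ, and the PBS libraries spanned the whole IFN-γ group. Its log2 difference was 0.23 with a 95% interval of -0.26 to 0.73 (adjusted p = 0.45). For Hk2, the inducible hexokinase, the difference was -0.13 (-0.37 to 0.10), and for Pkm -0.28 (-0.55 to 0.00, adjusted p = 0.099). Pfkp, the platelet-type phosphofructokinase, was the only other gene with a positive estimate, 0.34 (0.03 to 0.66, adjusted p = 0.081). Without replicate 1 of PBS 8 genes passed, with Hk2 (-0.26, adjusted p = 0.011) and Pkm (-0.43, adjusted p = 5.1e-04) added, and Slc2a1 was at -0.06. Leaving replicate 2 out of both groups left 3 genes (Pgk1, Ldha and Pdk1).

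With peptide alone the calls depended on the fit. For LE, SE and PE against PBS, 0 of the 10 genes passed in edgeR, 0 had an unadjusted p under 0.05, and 0 passed in DESeq2, beside 0.0242%, 14.3% and 20% of all 12420 genes called for LE, SE and PE in edgeR. The 3 comparisons share the PBS libraries. Log2 differences ran from -0.10 to 0.21 for LE, from -0.08 to 0.28 for SE and from -0.12 to 0.33 for PE, and the 95% intervals reached as far as -0.59 and 0.99. Ldha, for example, stood at 1862, 2679 and 2768 CPM with LE, 2133, 2497 and 3177 CPM with SE, and 2278, 2723 and 3078 CPM with PE, all 3 groups overlapping PBS. The widest intervals were those of Slc2a1, so a difference of a size seen with IFN-γ below was not detectable in this gene without IFN-γ. Leaving replicate 1 out of these 4 groups left the count at 0 for all 3 peptides. Without the filter on low counts, 5 genes passed for SE (Slc2a1, Pfkl, Aldoa, Pkm and Ldha) and 5 for PE (Hk1, Pfkl, Aldoa, Pkm and Ldha), all higher than PBS, and 0 for LE. In that setting 9.95%, 11.7% and 1.93% of all genes were called for SE, PE and LE. With the replicate number as a block, 2 passed for SE (Aldoa and Ldha) and 5 for PE (Hk1, Pfkl, Aldoa, Pkm and Ldha), again all higher, and 0 for LE. The block called 25%, 29.4% and 0.33% of all genes for SE, PE and LE. Ldha with PE was at 0.33 (adjusted p = 2.3e-04) without the filter and at 0.35 (adjusted p = 0.0042) with the block.

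Model A of the study sets cells given both a peptide and IFN-γ beside cells given the cytokine only, and asks what each peptide adds in activated cells. SE raised 7 of the 10 genes and lowered 0, LE raised 4 and lowered 1, and PE raised 2 and lowered 0. Over all 12720 genes tested 33.4% were called for SE (16.7% higher), 50.5% for LE (25.7% higher) and 10% for PE (5.43% higher). The medians over the 10 genes were 0.36, 0.10 and 0.03 for SE, LE and PE, beside about 0 for all genes (-0.01, -0.01 and 0.00). With a trend on gene length and GC content subtracted, the medians for LE and PE were 0.18 and -0.01. Only Hk2 with LE and Slc2a1 with SE passed and changed by more than 1.5-fold, which 15.5% and 7.39% of all genes did. The 3 comparisons share the IFN-γ libraries.

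**Figure D3:**
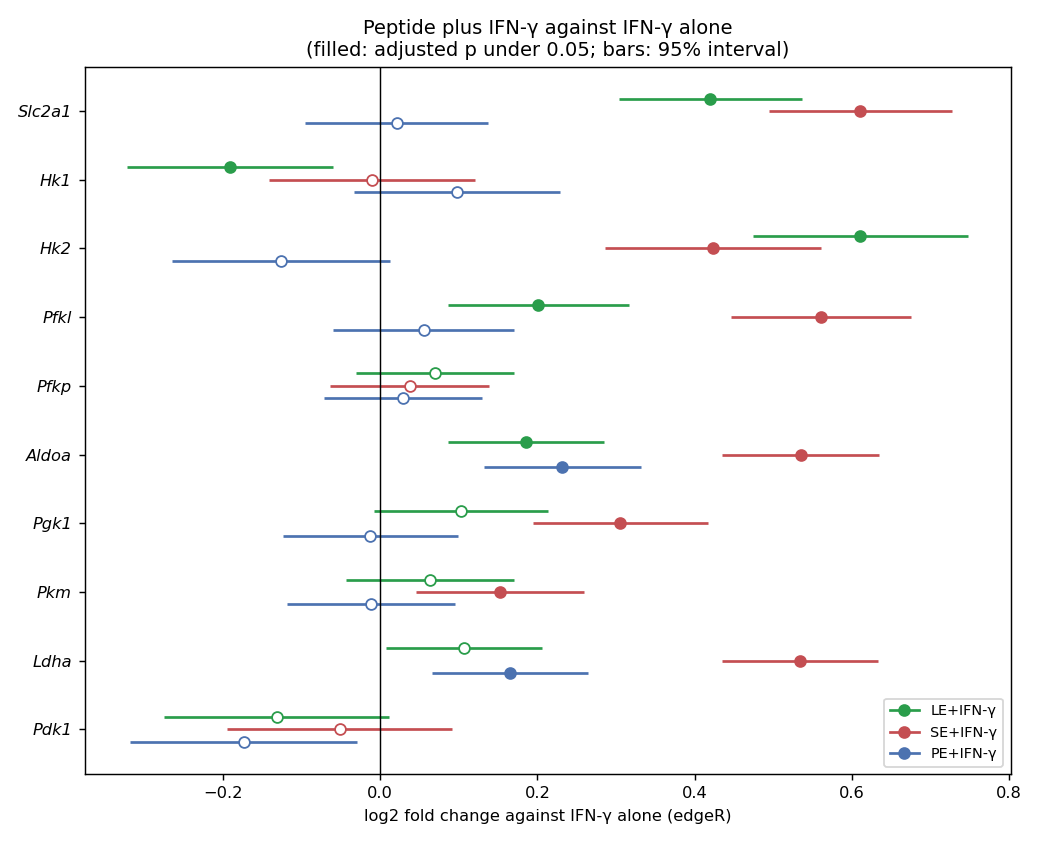
Log2 fold change of each gene in peptide plus IFN-γ against IFN-γ alone (horizontal axis), with 95% intervals; filled points passed the test and open points did not. SE (red) lies right of 0 for Slc2a1, Hk2, Pfkl, Aldoa, Pgk1, Pkm and Ldha, LE (green) is furthest right for Hk2 at 0.61, and PE (blue) passed for Aldoa and Ldha only.

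Slc2a1, the glucose transporter, rose with both LE and SE. With IFN-γ alone it read 268, 240 and 275 CPM, in the LE plus IFN-γ libraries 366, 338 and 348 CPM, in SE plus IFN-γ 402, 381 and 412 CPM, and in PE plus IFN-γ 262, 267 and 264 CPM. The LE and SE libraries lay above every IFN-γ library and did not overlap each other, while PE lay within the IFN-γ range. The log2 fold change was 0.42 ± 0.06 for LE (adjusted p = 6.25e-06), 0.61 ± 0.06 for SE (adjusted p = 1.9e-07) and 0.02 for PE (-0.10 to 0.14).

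Hk2 showed the opposite order of LE and SE. It stood at 116, 105 and 105 CPM with IFN-γ alone, 173, 158 and 169 CPM with LE, 153, 138 and 146 CPM with SE, and 107, 100 and 90.8 CPM with PE. LE and SE were above all IFN-γ libraries, and every LE library was above every SE library. The fold change was 0.61 ± 0.07 on the log2 scale for LE (1.53-fold, adjusted p = 5.7e-07), 0.42 ± 0.07 for SE (adjusted p = 7.8e-05) and -0.13 for PE (-0.26 to 0.01). Hk1, the constitutive hexokinase, moved the other way with LE: 182, 180 and 179 CPM beside 194, 228 and 193 CPM with IFN-γ alone, a fall of 0.19 ± 0.06 (adjusted p = 0.016).

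Ldha, Pfkl and Aldoa rose more with SE than with LE. Ldha rose from 956, 1008 and 996 CPM to 1438, 1384 and 1459 CPM with SE, a log2 fold change of 0.53 ± 0.05 (adjusted p = 1.4e-07). With LE it was 1070, 1087 and 1046 CPM, a difference of 0.11 (0.01 to 0.21) that did not pass (adjusted p = 0.068), and with PE 1079, 1080 and 1152 CPM, which passed at 0.17 ± 0.05 (adjusted p = 0.035). Pfkl read 123, 123 and 127 CPM with IFN-γ alone and 181, 183 and 184 CPM with SE, tightly grouped on both sides (0.56 ± 0.05, adjusted p = 4.4e-07), against 143, 149 and 138 CPM with LE (0.20 ± 0.05, adjusted p = 0.0049). Aldoa stood at 2478, 2607 and 2617 CPM with IFN-γ alone, 3759, 3741 and 3642 CPM with SE, 2934, 2988 and 2877 CPM with LE and 2969, 2932 and 3121 CPM with PE. It passed with all 3 peptides, at 0.53, 0.19 and 0.23 for SE, LE and PE. Pgk1 (0.31 ± 0.05) and Pkm (0.15 ± 0.05) rose with SE alone among the 3 tests, and Pfkp and Pdk1 passed with none of the peptides. Pdk1 had estimates of -0.13, -0.05 and -0.17 for LE, SE and PE.

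In the HLA-labelled libraries, with groups as labelled, the same comparisons read differently. Slc2a1 stood at 107, 121 and 133 CPM in the libraries labelled IFN-γ, 232, 206 and 224 CPM in LE plus IFN-γ, 149, 104 and 105 CPM in SE plus IFN-γ and 215, 218 and 231 CPM in PE plus IFN-γ. The mean log2 CPM of the IFN-γ targets was 2.20 to 2.24 in the libraries labelled IFN-γ and 2.13 to 2.28 in those labelled SE plus IFN-γ, where the letter-labelled libraries without IFN-γ stood at 2.37 to 2.67, against 5.75 to 5.87 for LE plus IFN-γ and 5.99 to 6.06 for PE plus IFN-γ. The highest Hk2 values, 300, 273 and 216 CPM, were in libraries labelled LE alone, whose IFN-γ targets read 6.66 to 6.72. The comparisons between these groups therefore cannot be told apart from a difference in IFN-γ response, and the doubt on their labels holds for each of these values.

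These calls used the spread of the groups with IFN-γ. A fit of all 24 libraries adds the wider spread of the groups without IFN-γ. In it 1 gene passed for LE (Hk2), 3 for SE (Hk2, Aldoa and Ldha) and 0 for PE. Over all 13096 genes that fit called 42.6%, 26% and 2.23% for LE, SE and PE. Leaving out each replicate number in turn gave 3 to 5 for LE, 6 to 7 for SE and 0 to 3 for PE.

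The 3 peptides were next compared pairwise in cells that had IFN-γ, at the same dose and time. Between LE and SE 7 of the 10 genes differed, 6 lower and 1 higher with LE, beside 35.6% of all genes (16.5% lower). Ldha was lower with LE by 0.43 ± 0.05 on the log2 scale, from SE libraries of 1384 to 1459 CPM to LE libraries of 1046 to 1087 CPM (log2 fold change -0.43, adjusted p = 1.2e-05). The differences (LE minus SE) of Pfkl (-0.36), Aldoa (-0.35), Pgk1 (-0.20), Slc2a1 (-0.19) and Hk1 (-0.18) had the same sign, and only Hk2 (0.19, 0.05 to 0.32) was higher with LE. For Pfkp, Pkm and Pdk1 the intervals of the difference were -0.07 to 0.13, -0.20 to 0.02 and -0.22 to 0.06. Against PE, SE was higher for 7 genes and lower for 0 (17.3% of all genes were higher and 34.4% called), led by Slc2a1 (0.59), Hk2 (0.55) and Pfkl (0.50). LE differed from PE in 4 genes (59.9% of all genes), higher in Hk2 (0.74), Slc2a1 (0.40) and Pfkl (0.15) and lower in Hk1 (-0.29). For Ldha and Aldoa, LE and PE were within -0.16 to 0.04 and -0.15 to 0.05 of each other. In the fit of all 24 libraries the counts were 1 for LE against SE (Ldha), 2 for SE against PE and 1 for LE against PE. That fit called 24.9%, 26% and 53.1% of all genes in these 3 comparisons. Between LE and SE, leaving out replicate 1 or replicate 3 left 3 genes (Pfkl, Aldoa and Ldha).

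Set against the same peptide without IFN-γ, called Model B in the study, the fall with IFN-γ was present beside every peptide. With LE 7 genes fell and 2 rose (65.9% of all 12947 genes called), with SE 6 fell and 2 rose (57.5%), and with PE 7 fell and 0 rose (49.9%). Ldha fell by 1.20, 0.88 and 1.30 on the log2 scale beside LE, SE and PE, Pdk1 fell by 0.93, 0.87 and 1.07, Pgk1 fell by 0.70, 0.54 and 0.78, and Hk1 fell by 0.75, 0.60 and 0.52. Pfkl and Pkm fell beside all 3 peptides too, and Aldoa beside LE and PE, with -0.18 (-0.43 to 0.07) beside SE. Hk2 went from 97.6, 130 and 118 CPM with LE to 173, 158 and 169 CPM with LE and IFN-γ (0.52 ± 0.11, adjusted p = 4.5e-04), and it rose beside SE (0.33 ± 0.11, adjusted p = 0.018). Beside PE its difference was -0.15 (-0.39 to 0.10). Slc2a1 passed beside SE alone (0.55, 0.08 to 1.03, adjusted p = 0.044), and Pfkp beside LE alone (0.34, adjusted p = 0.024). Without replicate 1 of the groups without IFN-γ, Slc2a1 beside SE was at 0.30 (adjusted p = 0.066) and Pfkp beside LE at 0.23 (adjusted p = 0.074), so neither passed, while Aldoa beside SE did (-0.29, adjusted p = 0.0094).

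**Figure D4:**
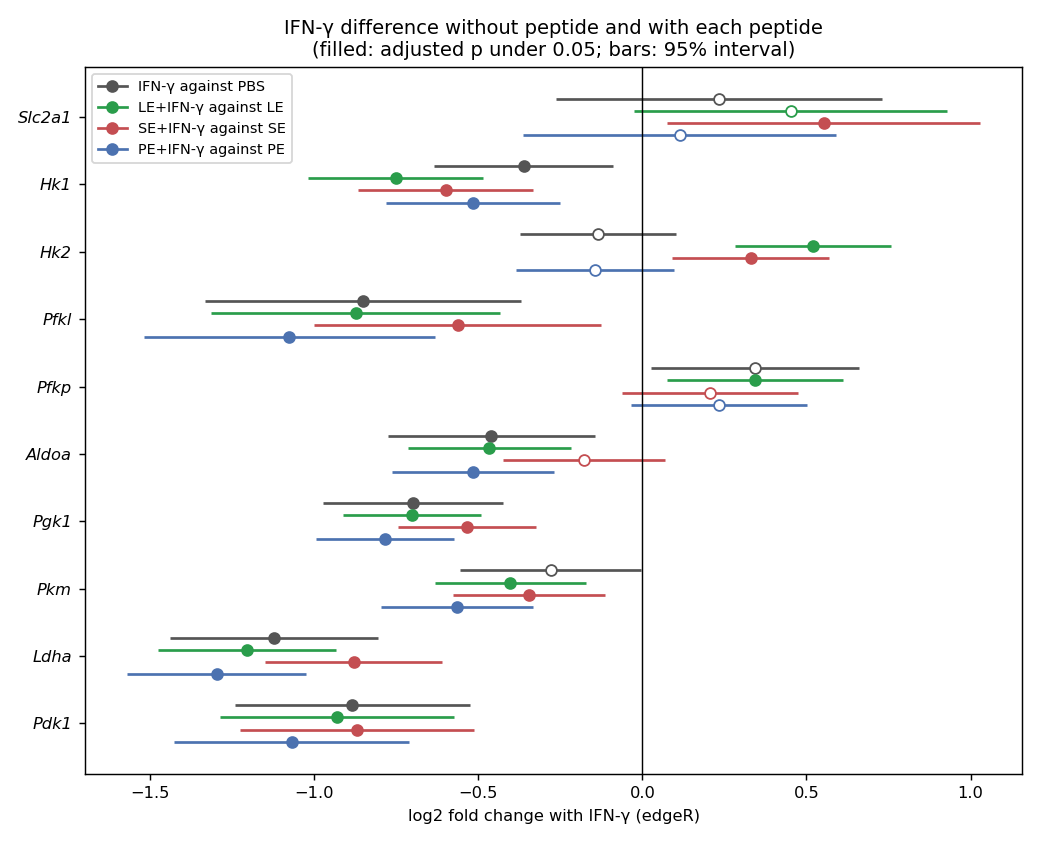
Log2 fold change with IFN-γ (horizontal axis) without peptide and beside each peptide, with 95% intervals; filled points passed the test. Ldha, Pdk1, Pfkl, Pgk1 and Hk1 lie left of 0 in all 4 settings, and Hk2 passed right of 0 beside LE (0.52) and SE (0.33) but not without peptide (-0.13) or beside PE (-0.15).

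Whether a peptide changed the response to IFN-γ was tested as an interaction over all 8 groups. Hk2 with LE was the only 1 of 30 gene and peptide pairs to pass, at 0.65 ± 0.17 on the log2 scale (95% interval 0.29 to 1.01, adjusted p = 0.0048), beside 38.5% of 13096 genes called for LE. The IFN-γ difference of Hk2 was -0.13 without peptide and 0.52 with LE. The call was kept without replicate 1 of the groups without IFN-γ (0.68, adjusted p = 1.3e-04), and it was lost when replicate 3 was left out of every group (0.54, adjusted p = 0.068). For SE 0 genes passed (19.8% of all genes did), Hk2 alone had an unadjusted p under 0.05 (0.47 ± 0.17, adjusted p = 0.059), and DESeq2 called 1 gene. For PE 0 genes passed in edgeR, 0 had an unadjusted p under 0.05 and DESeq2 called 0, with 2 of the 10 given no adjusted p there. For all genes the PE test gave 0% (1073 of 13096 at an unadjusted p under 0.05, and 14 of 1417 with an adjusted p in DESeq2). With standard errors of 0.17 to 0.37, differences such as the 0.30 of Pfkl with SE (-0.41 to 1.00) could not be resolved.

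The rest of the pathway was read from lists of related genes. Of the 11 other glycolysis enzymes tested, 10 fell and 1 rose with IFN-γ alone (39.7% of all genes called, 19.5% lower), the fall led by Aldoc (-1.87), Eno2 (-1.49) and Tpi1 (-0.83), and the rise being Hk3 (1.12), a hexokinase of myeloid cells. The median was -0.49, beside -0.01 for all genes. Hk3 read 556, 622 and 572 CPM in PBS and 1297, 1271 and 1271 CPM with IFN-γ. In Model A the list gave 4 genes up and 0 down with SE (Eno2 1.06, Gpi1 0.50, Tpi1 0.45 and Gapdh 0.37), 2 up and 4 down with LE (Eno2 1.01, Gpi1 0.28, Aldoc -0.36 and Pfkm -0.30), and 6 up and 0 down with PE, where 33.4%, 50.5% and 10% of all genes were called for SE, LE and PE. Medians of this list were 0.12, -0.05 and 0.19 for SE, LE and PE, where 16.7%, 25.7% and 5.43% of all genes were higher. Between LE and SE 8 of the 11 were lower with LE and 0 higher (35.6% of all genes called, 16.5% lower). Eno2, the neuronal enolase, stood at 18.6, 22.0 and 18.3 CPM with IFN-γ alone, 39.3, 41.0 and 38.8 CPM with LE, 43.1, 40.1 and 40 CPM with SE and 20.6, 21.4 and 27.8 CPM with PE. Peptide groups LE and SE were apart from IFN-γ alone and overlapped each other.

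Of 6 genes of lactate and pyruvate handling, 3 were lower and 2 higher with LE than with SE (35.6% of all genes called). The lower ones were Slc16a3, Bsg and Mpc2 (-0.25), a subunit of the mitochondrial pyruvate carrier, and the higher ones were the monocarboxylate transporters Slc16a1 (0.23) and Slc16a7 (0.45). Slc16a3 encodes MCT4, the lactate exporter, and Bsg its chaperone. Slc16a3 read 187, 192 and 186 CPM with IFN-γ alone, 211, 222 and 220 CPM with SE (log2 fold change 0.21), 217, 208 and 226 CPM with PE (0.20) and 166, 166 and 151 CPM with LE, where it fell by 0.24. Bsg fell with IFN-γ (-0.60) and rose when SE was added (0.33). With LE set against SE, Slc16a3 was lower by -0.44 and Bsg by -0.34 on the log2 scale, and both passed. Of the 5 other glucose transporters tested, Slc2a3 (0.27) and Slc2a4 (1.41, at no more than 3.00 CPM) rose with IFN-γ alone (39.7% of all genes called, 20.2% higher). Slc2a6, which is found on lysosomes of macrophages, fell with LE (-0.79) and SE (-0.51) in Model A, opposite to Slc2a1. Among the 5 enzymes and relatives that set fructose 2,6-bisphosphate, 2 rose and 2 fell with LE, and 1 rose and 1 fell with SE. For all genes 50.5% and 33.4% were called with LE and SE. Pfkfb3, which favours glycolysis, rose with LE (0.62) and SE (0.27), and Tigar, which acts the other way, fell with both (-0.63 and -0.43). With LE Pfkfb1 rose (0.56) and Pfkfb4 fell (-0.38).

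HIF and its other targets were listed because most of the 10 genes are known targets. Of 15 HIF targets outside glycolysis, 7 fell and 2 rose with IFN-γ alone (median -0.36, beside 39.7% of all genes called), with Adm (-4.64), P4ha2 (-3.49) and Ankrd37 (-3.47) the most lowered. In Model A 9 rose and 2 fell with LE (median 0.34), 10 rose and 0 fell with SE (0.39), and 0 passed with PE (-0.02) in edgeR, beside 50.5%, 33.4% and 10% of all genes called. Vegfa, the vascular growth factor, read 56.7, 52.9 and 54.0 CPM with IFN-γ alone, 98.4, 92.2 and 98.2 CPM with LE, 98.1, 87.0 and 92.4 CPM with SE and 52.6, 55.9 and 50.6 CPM with PE. Of 7 HIF regulators 3 rose and 3 fell with LE, and 4 rose and 0 fell with SE (50.5% and 33.4% of all genes called). The transcript of Hif1a itself rose by 0.97 with LE and by 0.35 with SE on the log2 scale, and Arnt, its partner, by 0.57 and 0.39. Epas1, which encodes HIF-2α, rose by 1.85 and 1.34. Egln1, a prolyl hydroxylase that restrains HIF, was the most lowered with LE (-0.32). Hif1a stood at 64.7, 54.8 and 51.7 CPM with IFN-γ alone, 112, 108 and 117 CPM with LE and 73.9, 63.7 and 80.6 CPM with SE.

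**Figure D5:**
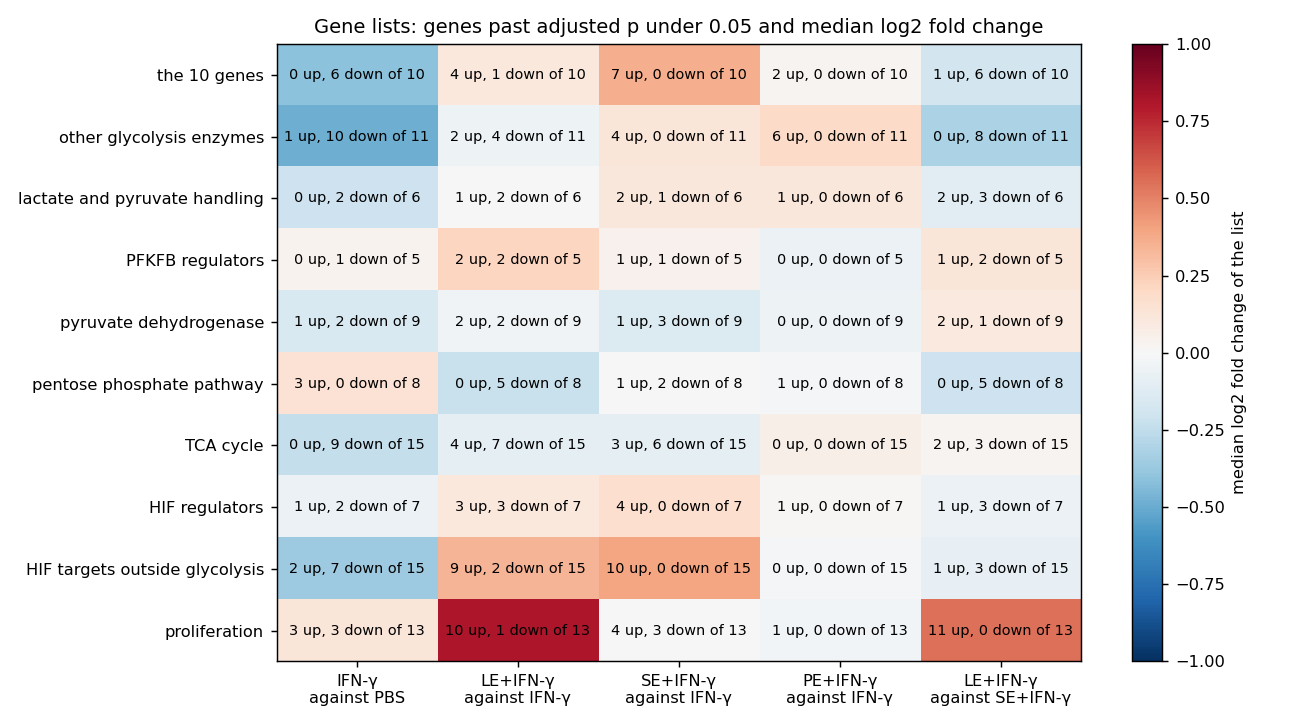
Gene lists (rows) in 5 comparisons (columns), with the number of genes past an adjusted p under 0.05 in each direction and, as colour, the median log2 fold change of the list. The 10 genes and the HIF targets are red for SE plus IFN-γ against IFN-γ alone (medians 0.36 and 0.39) and near 0 for PE (0.03 and -0.02). The other glycolysis enzymes had medians of 0.12 for SE and 0.19 for PE.

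Genes of cell division moved with LE in the same comparison. Of 13 proliferation genes 10 rose and 1 fell with LE plus IFN-γ against IFN-γ alone (50.5% of all genes called), and their summed level was 1873 to 2107 CPM with LE, 1028 to 1338 CPM with IFN-γ alone, 1184 to 1306 CPM with SE and 1101 to 1231 CPM with PE. Their part in the differences of Slc2a1, Hk2 and the other genes was not tested. Osteoclast markers, 7 in all, summed to 350 to 427 CPM without IFN-γ and 106 to 196 CPM with it, Calcr being at 0 in 23 of 24 libraries, and the 8 macrophage markers summed to 8478 to 11438 CPM and 6171 to 8627 CPM. Single markers did not all follow these sums, and Lyz2 alone read 2966 to 7395 CPM. With IFN-γ alone against PBS, 3 macrophage markers rose and 3 fell of 7 tested (median 0.09). Of 6 osteoclast markers tested 1 rose and 4 fell (median -1.86), beside 39.7% of all genes called. The part of either marker list in the fall of glycolysis genes was not tested.

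The pattern of the 10 genes was summarised as their mean standardised log2 CPM over the 24 libraries. Among 8631 genes with a mean of at least 10 CPM, those outside the 10 most like it by Pearson's r were Bnip3 (0.970), Jmjd6 (0.967), Ak4 (0.955), Gpi1 (0.952) and Pgm2 (0.946). Single genes had different nearest neighbours: Ndrg1 for Slc2a1 (0.955), Bhlhe40 (0.937) and Vegfa (0.928) for Hk2, Gpi1 (0.982) for Aldoa, Fam162a (0.987) for Ldha and Selenbp1 (0.971) for Pdk1. Bnip3, a mitochondrial HIF target, read 21.6, 89.9 and 105 CPM in PBS and 21.0, 20.8 and 21.0 CPM with IFN-γ, so it had the same low replicate 1. All these libraries share the same scaling, and the values are a description without a test.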

How the data were processed

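The authors deposited 1 table of raw read counts per gene (48 columns, of which 24 are letter-labelled), made per the labels and the study's methods with featureCounts from uniquely aligned reads on GENCODE M12 and build GRCm38.p5; the aligner is not given in the sources used here. Poly(A) RNA was sequenced. The members and gene lists were chosen with earlier results of these data known. In the letter-labelled libraries, counts were scaled by TMM, low genes were removed (filterByExpr), and edgeR 4.0.16 (R 4.3.3) fitted quasi-likelihood models on the groups compared: 2 for IFN-γ against PBS, 4 for the peptides alone and for Model A, 6 for Model B and 8 for the interactions. A gene passed at a Benjamini-Hochberg adjusted p under 0.05 over all genes tested; a fold over 1.5 was a second rule. Scripts were tested on simulated counts. Of each further list the text names at most 4 genes per comparison, those with the largest change past the threshold, and values per library for genes chosen after their values were seen (Eno2, Hk3, Slc16a3, Vegfa, Hif1a and Bnip3); Slc16a1 was named beyond the 4, after its value was seen. The least alike pair of replicates among 24 had a chi-square of 25.9 per degree of freedom and the most alike pair 3.89, so no replicates were taken to be 1 library. Genome positions come from GENCODE M21 and RefSeq on GRCm38.p6, exon lengths from GENCODE M21. Of the gene names 26 look like dates and 2 names are repeated, none among the genes named. Replicate numbers were not taken to pair the samples in the main fits. Alternatives were DESeq2 1.42.0, RLE scaling, no filter, a replicate block, 1 fit of all 24 libraries, each replicate left out, a trend on length and GC content subtracted, and the HLA-labelled libraries; leaving replicate 1 out of the groups without IFN-γ was added after the data were seen.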

Additional observations from a re-analysis of the deposited data

Results flagged for a closer look

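The interaction of LE and IFN-γ for Hk2 was flagged because the effect of IFN-γ differed between cells with and without LE by a test of the difference itself (0.65 on the log2 scale, edgeR adjusted p = 0.0048 over 13096 genes). Hk2 was 94.9, 125 and 135 CPM in PBS, 97.6, 130 and 118 CPM with LE, 116, 105 and 105 CPM with IFN-γ and 173, 158 and 169 CPM with both. All 3 libraries with both agents were above all 9 others. Of the 10 genes it was the only 1 flagged, while 38.5% of all genes were called in the same test. The call was lost when replicate 3 was left out of every group.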

How the results depend on the processing

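Counts are of the 10 genes past the threshold, as reported first. RLE scaling kept every count within 1.5 times of the reported one, and so did DESeq2 except for the interaction of SE and IFN-γ (1 in place of 0). A fold over 1.5 besides gave 1 in place of 5 for LE plus IFN-γ against IFN-γ, 1 in place of 7 for SE plus IFN-γ, 0 in place of 2 for PE plus IFN-γ, 0 in place of 7 for LE against SE with IFN-γ, 1 in place of 4 for LE against PE, 1 in place of 7 for SE against PE, and 5, 3 and 4 in place of 9, 8 and 7 for LE, SE and PE with IFN-γ against the peptide alone. The fit of all 24 letter-labelled libraries gave 1, 3 and 0 for LE, SE and PE plus IFN-γ against IFN-γ, and 1, 1 and 2 for LE against SE, LE against PE and SE against PE. It called 42.6%, 26% and 2.23% of all genes in the former and 24.9%, 53.1% and 26% in the latter. No filter on low counts gave 5 for SE and 5 for PE against PBS, where 0 had passed, and 2 and 3 for the interactions of LE and SE. Of all genes it called 9.95% and 11.7% for SE and PE against PBS, and 17% and 9.51% for those interactions. Leaving replicate 1 out of the groups without IFN-γ gave 2 for the interaction of SE (Hk2 and Aldoa). Leaving out each replicate in turn gave 3 to 8 for IFN-γ against PBS, 3 to 5 for LE plus IFN-γ and 0 to 3 for PE plus IFN-γ against IFN-γ, 3 to 5 for LE against SE, 5 to 7 for SE plus IFN-γ against SE, and 0 to 1 for the interactions of LE and of SE. The lowest counts came without replicate 2 for IFN-γ against PBS and for SE plus IFN-γ against SE, without replicate 1 for LE plus IFN-γ, without replicate 1 or 3 for PE plus IFN-γ and for LE against SE, and without replicate 3 for the interaction of LE. The cause of these differences was not tested.

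Same-numbered replicates had correlated deviations over 0.1 in 25 of 84 pairs of groups, so the numbers were not taken to pair the samples. Among the 18 pairs of groups without IFN-γ it was 12 (median r 0.13, against -0.074 for different numbers, lowest -0.10). There replicate 1 was also the lowest library in 40 of 40 gene and group pairs. A shift shared by replicate number in these groups stays in the error of the main fits. The replicate block gave 8 in place of 6 for IFN-γ against PBS, 2 and 5 in place of 0 for SE and PE against PBS, and 2 and 1 in place of 1 and 0 for the interactions of LE and SE. With the block 45%, 25% and 29.4% of all genes were called for IFN-γ, SE and PE against PBS, and 41% and 23.1% for those interactions.

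The HLA-labelled libraries alone gave 0 for IFN-γ against PBS, 5 and 7 for LE and PE against PBS, 0 and 4 for SE and PE plus IFN-γ against IFN-γ, 0 and 4 for LE and SE against PE with IFN-γ, 0 and 3 for SE and PE plus IFN-γ against the peptide alone, and 2 and 4 for the interactions of LE and PE. The group of these libraries is in doubt, since the order of the columns in the count table does not follow their labels, so these values are no failed repeat. Of 63 gene results past the threshold 26 changed sign there, with groups as labelled. In Model A these were Aldoa with LE (-0.082), SE (-0.017) and PE (-0.16), Pkm with SE (-0.059) and Ldha with PE (-0.51). Between peptides they were Slc2a1 (0.86) and Pfkl (0.0090) for LE against SE, Slc2a1 (-0.011), Hk2 (-0.073) and Pfkl (-0.15) for LE against PE, and Slc2a1 (-0.87), Hk2 (-0.33), Pfkl (-0.16) and Pkm (-0.012) for SE against PE. In Model B they were Hk2 (-0.95), Pfkp (-0.29) and Pdk1 (0.38) with LE, Slc2a1 (-0.37) and Hk2 (-0.024) with SE, and Hk1 (0.21), Pfkl (0.26), Aldoa (0.11), Pgk1 (0.015), Ldha (0.10) and Pdk1 (0.38) with PE. The interaction of Hk2 with LE was -0.95. With both label series and the series as a block the counts were 0 for IFN-γ against PBS, 2 for LE against PBS, 2, 0 and 0 for LE, SE and PE plus IFN-γ against IFN-γ, 3, 1 and 1 for LE against SE, LE against PE and SE against PE, 5, 0 and 3 for Model B, and 0 for the interaction of LE. Here 6 gene results changed sign: Ldha with PE in Model A (-0.18), Slc2a1 for LE against SE (0.29) and SE against PE (-0.14), Pfkl for LE against PE (-0.017), and Hk2 for LE plus IFN-γ against LE (-0.21) and in the interaction of LE (-0.18). In both settings 12 libraries carry IFN-γ targets that go against their label.

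Subtracting a trend on gene length and GC content (97.2% or more of genes had both) reversed 0 of the 63 gene results, moved 19 by more than the spread between replicates (1 SD, from the fit) and left 44 within it. It moved the median of the 10 genes from 0.10 to 0.18 for LE plus IFN-γ against IFN-γ, from 0.058 to 0.24 for LE against PE with IFN-γ and, against PBS, LE from 0.18 to 0.080 and SE from 0.21 to 0.12. It turned the sign of the median for PE plus IFN-γ against IFN-γ (0.025 to -0.011) and for the interaction of LE (-0.014 to 0.11). With 3 libraries a group, the standard errors of the differences without IFN-γ (up to 0.33) leave changes under about 1.5-fold unresolved for Slc2a1 and Pfkl.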

Other observations

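Routes beside glycolysis were read from lists of genes too. Of the 15 tricarboxylic acid cycle genes tested, 9 fell and 0 rose with IFN-γ alone (39.7% of all genes called), among them 3 subunits of succinate dehydrogenase, Sdhd (-0.67), Sdhc (-0.46) and Sdha (-0.37). Adding LE to IFN-γ lowered 7 and raised 4 of the 15, and adding SE lowered 6 and raised 3 (50.5% and 33.4% of all genes called), with Suclg1 (-0.65 with LE and -0.42 with SE) lowered most in both and Ogdh raised in both (0.34 and 0.30). With PE 0 of the 15 passed in edgeR.

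Of the 8 genes of the pentose phosphate pathway, which makes NADPH from glucose 6-phosphate, 3 rose (H6pd 0.37, G6pdx 0.26 and Taldo1 0.20), 0 fell and 5 did not pass with IFN-γ alone. For all genes 39.7% were called and 20.2% were higher with IFN-γ alone. LE added to IFN-γ lowered 5 and raised 0 (50.5% of all genes called), led by H6pd (-0.53) and Pgd (-0.36). In the interaction of LE and IFN-γ 6 of the 8 passed, all lower (38.5% of all genes called, 19.6% lower), with Pgd at -0.71 and H6pd at -0.68, while 1 of the 10 glycolysis genes passed.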
